A study of Mus musculus with 6 samples.

Results

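Mmd2 and the PAQR family were followed in beige adipocytes given 4-hydroxytamoxifen to induce deletion of Tle3, and in controls given ethanol. PAQR proteins (progestin and adipoQ receptors) are multi-pass membrane proteins that share a core domain. Adipor1 and Adipor2 bind adiponectin, the hormone released by fat cells, and signal through the kinase AMPK and the receptor PPARα; several members act in, or are related to enzymes of, ceramide breakdown. Others respond to progestins at the cell surface, and Paqr3, Mmd and Mmd2 have been placed at the Golgi, where they bear on RAF and RAS signalling. The 9 members, Mmd2, Mmd, Adipor1, Adipor2, Paqr3, Paqr4, Paqr7, Paqr8 and Paqr9, were picked by gene name among the 13962 genes of the table, and all 9 were found, each in 1 row. The family came into view because Mmd2 stood among the largest differences between the groups, so it was chosen by that value, and the difference of Mmd2 is given as a description without a test. The other 8 came with it by name, with the results of these data already known.

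The cells were a large T antigen line of preadipocytes from inguinal white fat of C57BL/6 mice, homozygous for a floxed Tle3 allele (TLE3F/F) and carrying CreERT2, a Cre recombinase that tamoxifen activates; both groups share this genotype. The libraries labelled knockout (n = 3) came from cells given 500 nM 4-hydroxytamoxifen for 24 hours from day 4, and the controls (n = 3) from cells given ethanol; both were harvested on day 10 after differentiation with insulin, T3, rosiglitazone and an inducing mixture. No library came from Cre-free cells given tamoxifen, so effects of the compound, of Cre activity and of a deletion cannot be told apart. The promoter that drives CreERT2 and the number of clones are not stated in the labels, and no label calls the replicates separate cultures. P-values therefore cover only how these libraries differ among themselves, and that spread may be technical.

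Total counts were between 14606228 and 15933996 in the libraries labelled knockout and between 14832434 and 19294632 in the controls. Tle3 itself stood at 286.9, 288.9 and 294.2 CPM (counts scaled to a common library size) in the libraries labelled knockout, against 151.4, 151.3 and 152.1 CPM in controls. The Tle3 counts were thus higher under the knockout label. They cover exons that the deletion may leave in place, so they cannot check the deletion or the label. Adipocyte markers were all in the table (8 of 8), with a summed level of 10620 to 12190 CPM in the libraries labelled knockout and 9586 to 11390 CPM in controls. Of 15 macrophage markers 5 were in the table, summing to 7.70 to 8.85 CPM in the libraries labelled knockout and 5.89 to 8.93 CPM in controls, and Adgre1, Ptprc and Itgam were not listed. Endothelial markers (3 of 6) summed to 3.04 to 3.55 CPM in the libraries labelled knockout and 1.96 to 3.52 CPM in controls, and the 1 of 5 muscle markers listed, Acta1, stood at 10.29 to 12.10 CPM in the libraries labelled knockout and 10.83 to 12.46 CPM in controls. Fibroblast and preadipocyte markers (8 of 10) summed to 7988 to 8386 CPM in the libraries labelled knockout and 8136 to 9327 CPM in controls, and beige markers (10 of 10) to 696.1 to 800.7 CPM in the libraries labelled knockout and 415.0 to 493.5 CPM in controls. Of these sums, that of the beige markers did not overlap between the groups, but abundant genes carry the sums and single markers of other lists differed too. For comparison, edgeR called 12.3% of all 13192 tested genes at an adjusted p under 0.05. Of all tested genes, 6.91% were called higher and 5.44% lower in the libraries labelled knockout. Of the 10 beige markers 5 rose, 1 fell and 4 were not called: Cidea, at 457.7 ± 42.8 CPM in the libraries labelled knockout and 222.5 ± 31.4 CPM in controls (SD, n = 3 each; edgeR adjusted p 0.000119), made up most of the gap, Ucp1, Cox8b, Ppargc1a and Tbx1 also rose, and Elovl3 fell (log2 −0.66, edgeR adjusted p 0.0469), a call lost in 7 of 12 alternative fits (adjusted p 0.0553 to 0.155). The call of Tbx1 was lost without knockout 3 (adjusted p 0.085). Of the 8 fibroblast and preadipocyte markers, Dlk1 rose (log2 0.72, edgeR adjusted p 0.00363), Thy1 fell (log2 −0.42, edgeR adjusted p 0.00473) and Pdgfra fell (log2 −0.38, edgeR adjusted p 0.0134; 0.0541 without knockout 2 and 0.0589 without knockout 3). Of the 8 adipocyte markers, Lipe rose (log2 0.24, edgeR adjusted p 0.0368), a call lost without knockout 2, knockout 3, control 1 or control 3 (adjusted p 0.0612 to 0.155). The part of these markers in the values below was not tested. In bulk RNA, fewer cells of a type and less RNA per cell cannot be told apart.

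Mmd2 was the member with the largest difference. It encodes a relative of the monocyte to macrophage differentiation protein Mmd; in cultured mammalian cells both proteins have been found to hold RAS at the Golgi. Mmd2 (ENSMUSG00000039533) stood at 34.86, 38.78 and 45.87 CPM in the libraries labelled knockout, against 117.3, 119.5 and 99.18 CPM in controls. The groups did not overlap, and the highest knockout library (knockout 3) was below the lowest control (control 3). The means were 39.84 ± 5.58 CPM in the libraries labelled knockout and 112.0 ± 11.1 CPM in controls (SD, n = 3 each). The controls were 2.81-fold higher, with a log2 fold change of −1.49 in the libraries labelled knockout. Among 13192 genes that passed the filter on low counts, this was the value with rank 24 counted from the lowest log2 fold change. As counts, the values were 559, 561 and 685 in the libraries labelled knockout and 2080, 1765 and 1943 in controls, and the groups did not overlap there either.

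Mmd, the closest relative of Mmd2, was not called. Mmd (ENSMUSG00000003948) stood at 134.4, 141.6 and 133.3 CPM in the libraries labelled knockout, against 135.2, 137.8 and 138.2 CPM in controls. The groups overlapped, and the log2 fold change was −0.007 (SE 0.041; edgeR adjusted p 0.938), with a 95% interval of the fold from 0.935 to 1.06. In GENCODE M21, 7.8% of the Mmd exons overlap those of Gm45716 and 13.7% those of Gm45883, both on the same strand. Neither of these was listed, and how far shared reads enter the Mmd level was not tested. Because Mmd2 and Mmd are counted in the same library, their ratio does not depend on how libraries are scaled. Mmd2 had 0.259, 0.274 and 0.344 counts for each Mmd count in the libraries labelled knockout, against 0.867, 0.867 and 0.718 in controls. The mean ratio was 0.292 ± 0.045 in the libraries labelled knockout and 0.817 ± 0.086 in controls (SD, n = 3 each). The ratios did not overlap between the groups. With Mmd nearly level, they restate the Mmd2 difference by which the family was chosen and give it no further support.

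**Figure D1:**
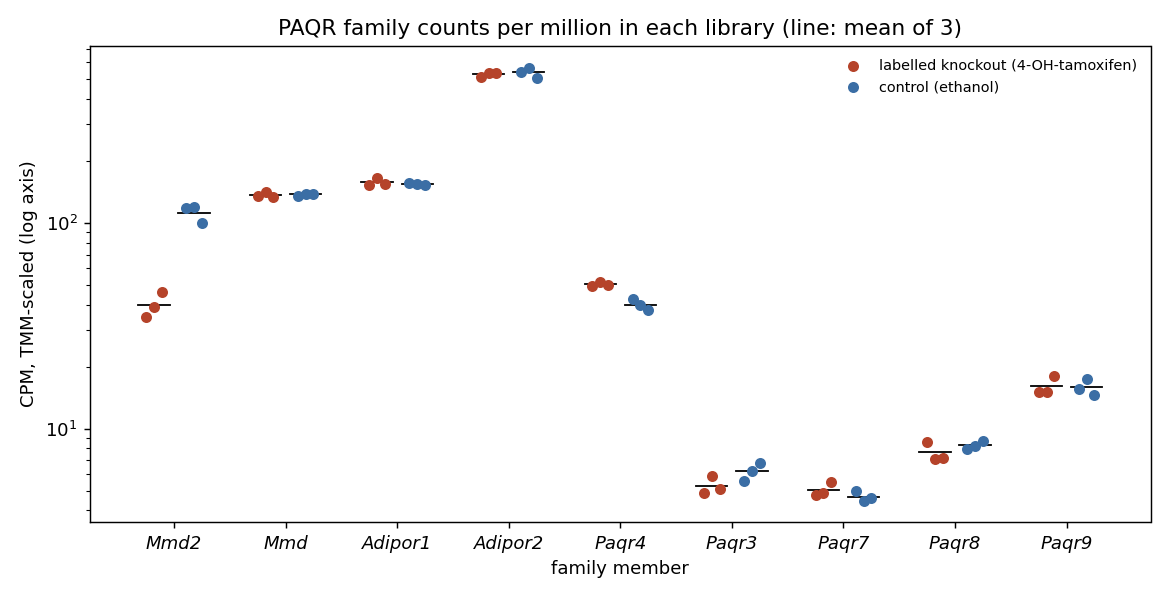
CPM (log axis) of the 9 members in each library, with 3 points per group and a line at each mean; libraries labelled knockout are red and controls blue. Mmd2 lies between 34.86 and 45.87 CPM in the libraries labelled knockout and between 99.18 and 119.5 CPM in controls, Paqr4 is separated in the other direction, and the groups of the other 7 members overlap. How often the groups were apart over all genes was not counted, so nothing is read from how many members were apart.

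The upstream sequences of this gene pair are shown because the Mmd2 groups were apart while the Mmd groups overlapped. Each is the 250 bases before the gene's start, from RefSeq (GRCm38.p6; the authors' build was mm9), with the GC box GGGCGG or its reverse complement in capitals. The Mmd2 sequence is chr5:142608753-142609002 on the minus strand and that of Mmd is chr11:90249226-90249475 on the plus strand.
Mmd2: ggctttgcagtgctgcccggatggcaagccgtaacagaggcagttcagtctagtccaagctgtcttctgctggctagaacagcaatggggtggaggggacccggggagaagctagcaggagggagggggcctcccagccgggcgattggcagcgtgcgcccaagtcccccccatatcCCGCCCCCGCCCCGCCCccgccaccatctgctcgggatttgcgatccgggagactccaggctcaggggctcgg
Mmd: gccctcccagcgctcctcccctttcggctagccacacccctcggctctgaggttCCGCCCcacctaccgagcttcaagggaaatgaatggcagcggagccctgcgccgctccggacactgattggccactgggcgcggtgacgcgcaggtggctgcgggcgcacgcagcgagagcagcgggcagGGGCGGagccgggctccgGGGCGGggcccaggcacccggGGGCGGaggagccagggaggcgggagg
The GC box, the binding motif of SP/KLF factors, was found 3 times before Mmd2, in a run of neighbouring matches, and 4 times before Mmd, and 32.7% of 32851 RefSeq promoter windows of this length held it on either strand. GC content was 67.2% for Mmd2 and 74.4% for Mmd, against a median of 52.4% over all windows. TLE proteins do not bind DNA themselves and are brought to it by factors that include RUNX, HES and TCF/LEF proteins, and EBF factors matter in brown and beige fat. Neither window held the letters TGTGGTT (RUNX, in 4.4% of all windows), CACGNG (HES, 23.5%), CTTTGAA (TCF/LEF, 4.5%) or TCCCNNGGG (EBF, 5.6%) on either strand. These are letter matches in a short window and say nothing about binding. Of the 9 members, 8 had a promoter entry; Paqr9 did not.

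Of the 8 members other than Mmd2, edgeR's quasi-likelihood test called 1, Paqr4, which rose, and 0 that fell, at an adjusted p under 0.05 over all tested genes (0 also fell at an unadjusted p under 0.05, with DESeq2 and with limma-voom). All 9 members passed the filter on low counts. Over all 13192 genes 12.3% were called, 6.91% higher and 5.44% lower in the libraries labelled knockout. The median log2 fold change of the 8 was 0.007, against −0.002 over all tested genes. Since the family was taken up through this contrast, nothing is read from the count.

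Paqr4, a less studied member that has been tied to ceramide metabolism in fat cells, rose. Paqr4 (ENSMUSG00000023909) stood at 49.45, 51.64 and 49.69 CPM in the libraries labelled knockout, against 42.41, 39.73 and 37.72 CPM in controls. Every library labelled knockout was above every control. The means were 50.26 ± 1.21 CPM in the libraries labelled knockout and 39.95 ± 2.35 CPM in controls (SD, n = 3 each), a 1.26-fold difference. The log2 fold change was 0.33 (SE 0.055, 95% interval 0.21 to 0.45; edgeR adjusted p 0.00386), and the call held in 12 of 12 alternative fits (adjusted p 0.00123 to 0.0236). In GENCODE M21, 12.1% of the Paqr4 exons overlap exons of Pkmyt1, a cell cycle kinase gene on the opposite strand, and the strand setting of the counting is not given in the sources used here. Pkmyt1 stood at 40.10 ± 2.77 CPM in the libraries labelled knockout and 36.96 ± 3.06 CPM in controls (SD, n = 3 each; log2 0.12, edgeR adjusted p 0.319). The Pkmyt1 groups overlapped, and how far shared reads enter the Paqr4 level was not tested.

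Neither adiponectin receptor gene was called, and the intervals of both were narrow. Adipor1 (ENSMUSG00000026457), whose product couples adiponectin mainly to AMPK, stood at 152.4, 164.6 and 153.3 CPM in the libraries labelled knockout, against 155.7, 154.6 and 153.2 CPM in controls. Its log2 fold change was 0.02 (SE 0.043; edgeR adjusted p 0.8), and the 95% interval of the fold ran from 0.950 to 1.08. Adipor2 (ENSMUSG00000030168), coupled mainly to PPARα, stood at 511.2, 534.7 and 533.6 CPM in the libraries labelled knockout, against 541.9, 566.5 and 503.2 CPM in controls. Its log2 fold change was −0.03 (SE 0.051; edgeR adjusted p 0.765), and the interval of the fold ran from 0.907 to 1.06. The groups overlapped for both receptors. For each Adipor1 count there were 3.36, 3.25 and 3.48 Adipor2 counts in the libraries labelled knockout and 3.48, 3.66 and 3.29 in controls, so the balance of both receptors overlapped too.

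**Figure D2:**
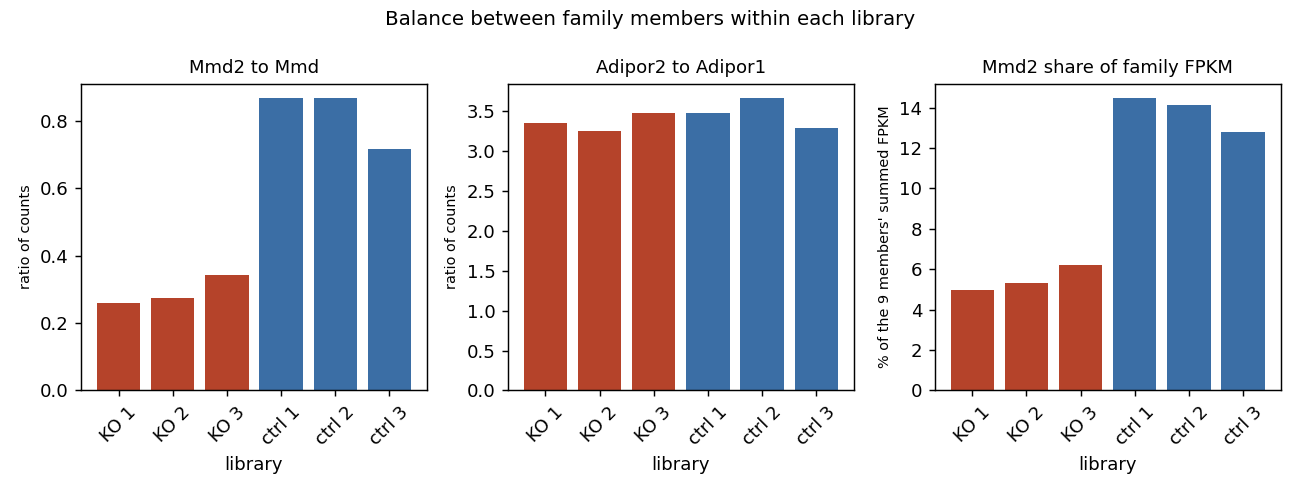
Bars give, for each of 6 libraries (libraries labelled knockout in red, controls in blue), the counts of Mmd2 per count of Mmd, the counts of Adipor2 per count of Adipor1, and Mmd2 as a percentage of the summed FPKM of the 9 members. The Mmd2 to Mmd ratio is 0.259 to 0.344 in the libraries labelled knockout and 0.718 to 0.867 in controls, while the Adipor2 to Adipor1 ratio overlaps between the groups.

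The membrane progestin receptor genes were low, and none was called. Paqr7, which encodes the alpha form of these receptors, stood at 4.74, 4.84 and 5.49 CPM in the libraries labelled knockout, against 4.96, 4.47 and 4.59 CPM in controls (log2 0.10, SE 0.128; edgeR adjusted p 0.667). Paqr8, the beta form, stood at 8.61, 7.12 and 7.23 CPM in the libraries labelled knockout, against 7.95, 8.26 and 8.68 CPM in controls (log2 −0.11, SE 0.111; edgeR adjusted p 0.551). Paqr9, the epsilon form, stood at 15.09, 15 and 17.95 CPM in the libraries labelled knockout, against 15.51, 17.40 and 14.60 CPM in controls (log2 0.02, SE 0.098; edgeR adjusted p 0.915). The groups of all 3 overlapped. With 66 to 90 counts per library, Paqr7 had a 95% interval of the fold from 0.882 to 1.30, so differences within that range are not excluded.

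Paqr3, whose product holds RAF kinases at the Golgi and so limits ERK signalling, was also not called. Paqr3 (ENSMUSG00000055725) stood at 4.86, 5.88 and 5.09 CPM in the libraries labelled knockout, against 5.58, 6.23 and 6.79 CPM in controls. The groups overlapped in 1 library of each, knockout 2 and control 1. The log2 fold change was −0.24 (SE 0.131; edgeR adjusted p 0.269), with an interval of the fold from 0.694 to 1.04. Of its exons, 15.7% overlap those of Bmp2k on the opposite strand in GENCODE M21, which stood at 60.28 ± 3.54 CPM in the libraries labelled knockout and 66.07 ± 1.68 CPM in controls (SD, n = 3 each; edgeR adjusted p 0.127). Bmp2k was the more abundant of the pair by counts, and how far shared reads enter the Paqr3 level was not tested.

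**Figure D3:**
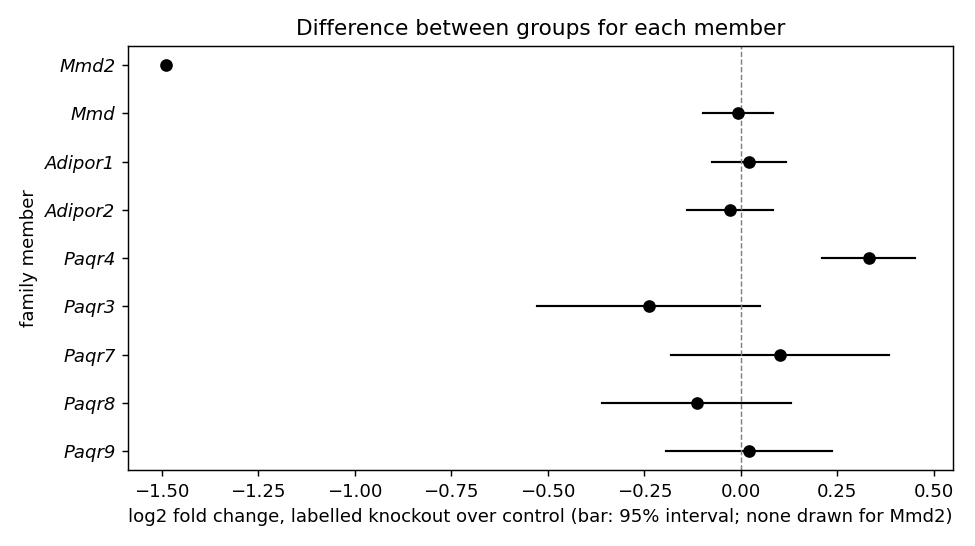
Points give the log2 fold change of each member in the libraries labelled knockout over controls, and bars its 95% interval; no interval is drawn for Mmd2, whose difference is a description. Mmd2 lies at −1.49 and Paqr4 at 0.33, and the intervals of the 7 members other than these cross 0.

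Per transcript length, Adipor2 led the family, and Mmd2 held a different place in each group. The authors' FPKM, rounded to whole numbers in the table, put Adipor2 at 123, 127 and 126 in the libraries labelled knockout and at 130, 135 and 123 in controls. Mmd2 was listed at 11, 12 and 14 FPKM in the libraries labelled knockout and at 36, 36 and 30 in controls. Adipor1 was listed at 31, 32 and 30 FPKM in the libraries labelled knockout and at 31 in every control, and Mmd at 25, 26 and 24 in the libraries labelled knockout and at 25, 25 and 26 in controls. Paqr4 was at 20 in each library labelled knockout and at 15 to 17 in controls, Paqr9 at 6 to 8 in both groups, Paqr8 at 1 or 2, and Paqr3 and Paqr7 at 1 throughout. By mean FPKM, Mmd2 was thus in place 5 in the libraries labelled knockout, below Adipor2, Adipor1, Mmd and Paqr4, and in place 2 in controls, where its values overlapped those of Adipor1. With exon lengths from GENCODE M21 in place of the authors', Mmd2 was in place 5 in the libraries labelled knockout and in place 4 in controls, below Mmd and Adipor1, so its place among these 3 in controls depends on the annotation. Paqr3, Paqr7 and Paqr8 could not be ordered from rounded values.

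Mmd2 made up 4.98%, 5.31% and 6.22% of the members' summed FPKM in the libraries labelled knockout, against 14.5%, 14.1% and 12.8% in controls. The sum itself was 221, 226 and 225 FPKM in the libraries labelled knockout and 249, 255 and 235 in controls, without overlap. In CPM per kilobase of GENCODE exons, the sum with Mmd2 was 183.9, 193.7 and 190.1 in the libraries labelled knockout. In controls it was 203.2, 207.5 and 191.9, and the groups overlapped (knockout 2 above control 3). Without Mmd2, this sum was 177.2, 186.3 and 181.2 in the libraries labelled knockout and 180.6, 184.5 and 172.8 in controls. There the groups overlapped as well. Of these sums only the FPKM sum was apart between the groups, and it includes Mmd2, by whose value the family was chosen. The FPKM sum without Mmd2 was not computed, so nothing is read from it about the other members.

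Mmd2 also varied most among the members within groups. The SD of log2 CPM within groups was 0.176 for Mmd2, against 0.035 for Mmd, 0.044 for Adipor1, 0.065 for Paqr4 and 0.066 for Adipor2 and 0.098 to 0.141 for the low Paqr3, Paqr7, Paqr8 and Paqr9. Knockout 3 had the highest Mmd2 level of its group and control 3 the lowest of its own. Leaving out knockout 3 gave a log2 fold change of −1.60 and leaving out control 3 gave −1.57, the values farthest from 0 among the alternative fits.

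The 5 genes whose profile over the 6 libraries lay nearest to that of Mmd2 were, by root-mean-square difference of centred log2 CPM, Fmo2 (0.182), Sema3a (0.185), Il1rn (0.227), Fam110c (0.229) and Sema3d (0.231). The median of this measure over the 10578 genes with at least 5 CPM was 0.764. All 5 were lower in the libraries labelled knockout, as a profile like that of Mmd2 requires. Within groups they did not all follow it. Among controls, Mmd2 was lowest in control 3 (99.18 CPM), and so was Fmo2 (8.37 CPM). Sema3a (89.84), Il1rn (9.39), Fam110c (8.32) and Sema3d (37.88 CPM) were highest there. In knockout 3, where Mmd2 was highest of its group, Il1rn was highest too, but Sema3a and Fam110c were lowest. Sema3a, a secreted axon guidance protein, stood at 34.24 ± 1.37 CPM in the libraries labelled knockout and 87.92 ± 2.99 CPM in controls, and its relative Sema3d at 14.80 ± 1.87 CPM in the libraries labelled knockout and 36.36 ± 2.36 CPM in controls (SD, n = 3 each). Fmo2, a flavin monooxygenase, stood at 3.94 ± 0.729 CPM in the libraries labelled knockout and 9.90 ± 1.57 CPM in controls, and Il1rn, the interleukin-1 receptor antagonist, at 3.01 ± 0.703 CPM in the libraries labelled knockout and 8.37 ± 0.904 CPM in controls (SD, n = 3 each). Of the listed genes on either side of Mmd2 in GENCODE M21 order, neither was called. Papolb stood at 1.45 ± 0.080 CPM in the libraries labelled knockout and 1.39 ± 0.204 CPM in controls (edgeR adjusted p 0.883). Wipi2, an autophagy gene, stood at 148.3 ± 2.85 CPM in the libraries labelled knockout and 163.8 ± 6.20 CPM in controls (log2 −0.14, edgeR adjusted p 0.0506), and it was called with library size alone as scaling (adjusted p 0.0259).

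Around the family, 79 genes of 6 lists on its ligands, effectors and partners were tested, and 11 were called, or 13.9%, with 5 that rose and 6 that fell; all genes gave 12.3%. The count was 7 of 79 (8.86%) without knockout 2, 6 (7.59%) without knockout 3 and 7 (8.86%) without control 3, where 7.19%, 4.65% and 8.02% of all tested genes were called. The median log2 fold change of the 79 was −0.015, against −0.002 over all tested genes.

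In the adiponectin list, 2 of the 17 genes tested rose and 1 fell; the list median was 0.03 on the log2 scale. Ppara, the nuclear receptor downstream of Adipor2, stood at 95.55 ± 7.17 CPM in the libraries labelled knockout and 70.99 ± 5.97 CPM in controls (SD, n = 3 each), a log2 rise of 0.43 (SE 0.069; edgeR adjusted p 0.0033). Prkaa2, a catalytic subunit of AMPK, rose by 0.27 (edgeR adjusted p 0.0365), but this call was lost without knockout 2, knockout 3, control 1 or control 3 (adjusted p 0.0926 to 0.158). Txndc5, a protein disulphide isomerase of the endoplasmic reticulum reported to bind the AdipoR1 protein, stood at 193.5 ± 1.94 CPM in the libraries labelled knockout and 225.6 ± 3.18 CPM in controls (log2 −0.22, edgeR adjusted p 0.00439). The ligand gene Adipoq stood at 683.5 ± 55.5 CPM in the libraries labelled knockout and 580.0 ± 51.2 CPM in controls (SD, n = 3 each). Its groups did not overlap, yet it was not called (log2 0.24, edgeR adjusted p 0.0559); it was called with DESeq2, with the replicate number as a block, and without knockout 1 or control 2 (adjusted p 0.014 to 0.0338). Cdh13, which encodes T-cadherin, another adiponectin-binding protein, was near 1 CPM in both groups (0.888 ± 0.376 in the libraries labelled knockout and 0.772 ± 0.212 in controls; edgeR adjusted p 0.809). The adaptor genes Appl1 (log2 −0.03, edgeR adjusted p 0.699) and Appl2 (log2 −0.02, edgeR adjusted p 0.875) were not called.

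Of 11 C1q/TNF relatives of adiponectin 4 were in the table, and 1 of the 4 fell, with a median of −0.25. C1qtnf1 stood at 6.83 ± 0.813 CPM in the libraries labelled knockout and 10.12 ± 1.33 CPM in controls (SD, n = 3 each; log2 −0.56, edgeR adjusted p 0.0175). Its call was lost without knockout 1 or knockout 2 (adjusted p 0.0584 to 0.0645).

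In ceramide metabolism, 2 of the 26 genes tested rose and 2 fell, and the list median was −0.04. Acer3, an alkaline ceramidase of a family that has been placed in a common superfamily with PAQR proteins, stood at 34.20 ± 1.64 CPM in the libraries labelled knockout and 24.42 ± 1.75 CPM in controls (SD, n = 3 each). This was a log2 rise of 0.49 (SE 0.070; edgeR adjusted p 0.00181), called in all 12 alternative fits. Smpd1, the acid sphingomyelinase, rose by 0.23 (edgeR adjusted p 0.0419), a call lost with library size alone and without knockout 1, knockout 3, control 1 or control 3 (adjusted p 0.0508 to 0.18). Sgms2, a sphingomyelin synthase, stood at 21.13 ± 2.75 CPM in the libraries labelled knockout and 28.60 ± 0.204 CPM in controls (log2 −0.43, edgeR adjusted p 0.00902). Lass6, the older name of a ceramide synthase gene, fell by 0.24 on the log2 scale (edgeR adjusted p 0.0381), a call lost without knockout 2, knockout 3, control 1 or control 3 (adjusted p 0.107 to 0.138). The other ceramidase genes, Acer2, Asah1 and Asah2, were not called (edgeR adjusted p 0.152, 0.883 and 0.763).

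**Figure D4:**
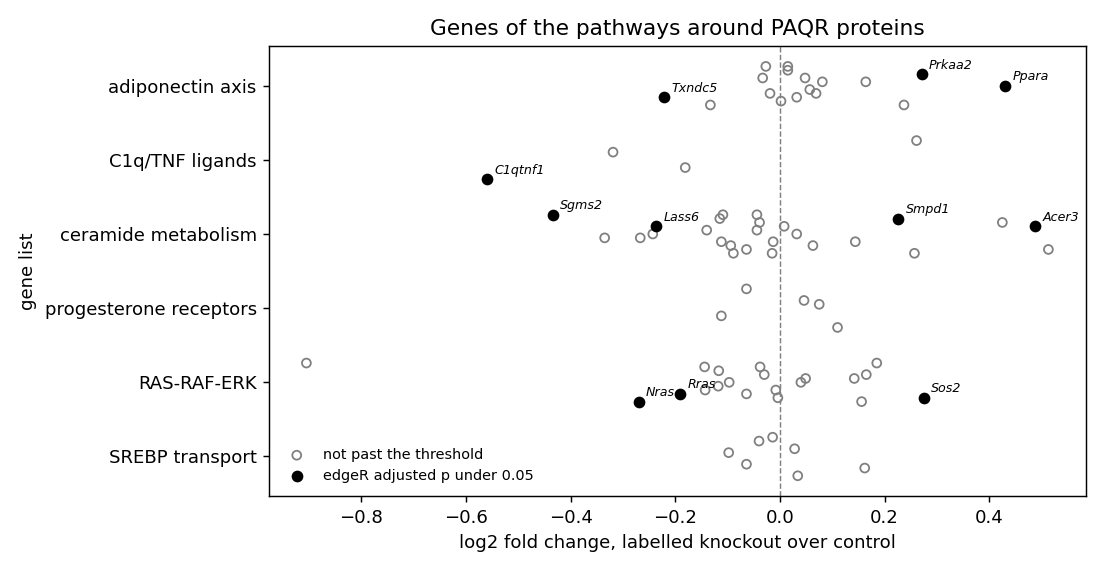
Each point is a tested gene of 1 of 6 lists around the PAQR family, at its log2 fold change in the libraries labelled knockout over controls; filled points, with names, passed an edgeR adjusted p of 0.05 over all genes. The filled points number 11 of 79, and none belongs to the progesterone or SREBP list.

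In the RAS-RAF-ERK list, the pathway on which Paqr3, Mmd and Mmd2 have been reported to act, 1 of 20 genes rose and 2 fell, with a median of −0.03. Nras stood at 78.80 ± 1.84 CPM in the libraries labelled knockout and 94.98 ± 4.35 CPM in controls (SD, n = 3 each; log2 −0.27, edgeR adjusted p 0.0055), and the call held in all 12 alternative fits. Rras fell by 0.19 on the log2 scale (edgeR adjusted p 0.0403), and 8 of 12 alternatives, among them the fits without any 1 of the 6 libraries, lost that call (adjusted p 0.0619 to 0.194). Sos2, an exchange factor that loads RAS with GTP, rose by 0.28 (edgeR adjusted p 0.0118), a call lost without knockout 3 (adjusted p 0.0675). Araf and Braf, which encode kinases of this pathway, were not called (edgeR adjusted p 0.0925 and 0.758).

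Of 5 tested genes for other progestin-binding proteins and partners, edgeR called 0. The nuclear receptor gene Pgr was not listed, and Pgrmc1 stood at 207.3 ± 5.14 CPM in the libraries labelled knockout and 224.0 ± 4.57 CPM in controls (SD, n = 3 each; edgeR adjusted p 0.0971). Of 7 genes for SREBP transport between the endoplasmic reticulum and the Golgi, where Paqr3 has been reported to anchor the SCAP protein, edgeR called 0 as well, and Scap had an adjusted p of 0.183. At an unadjusted p under 0.05 these lists held 1 and 1 genes, and DESeq2 and limma-voom called 0 in both.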

How the data were processed

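The authors deposited whole-number read counts per gene for 6 libraries, per the file headers, under Ensembl IDs with gene names. Beside them the authors deposited FPKM as a score, that is, values they had rounded to whole numbers, per the file headers; it served to order the members' levels per length. Poly(A) RNA was sequenced with a stranded kit, per the labels' protocols. The submitters' processing notes name Novoalign 2.8, Picard, DESeq2 and mm9, without roles; the read counter, its annotation and its strand setting are not stated there. Every listed gene had at least 10 counts in some library, so lower genes had been left out before deposit.

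Counts of all libraries were fitted with edgeR 4.0.16 in R 4.3.3 (filter by expression, which left 13192 genes and set 770 aside; TMM scaling; quasi-likelihood test with the group alone; Benjamini-Hochberg adjustment over all tested genes, threshold 0.05). The biological coefficient of variation was 5.25%. CPM uses TMM-scaled library sizes. The SE was derived from the log2 fold change and the F value of its test, and 95% intervals are per gene. Alternatives were RLE scaling, library size alone, no filter, DESeq2 1.42.0, limma-voom (limma 3.58.1), a replicate block and each library left out. Within groups, no pair of libraries agreed within sampling noise (chi-square per degree of freedom 2.88 to 7.53).

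The members and the gene lists were chosen with earlier results of these data known. Named genes were the members, Tle3, the called genes of each list (all if 5 or fewer, otherwise the 4 with the smallest adjusted p) with Adipoq and Cdh13, the 5 genes most like Mmd2 and its tested neighbours. Appl1, Appl2, Acer2, Asah1, Asah2, Araf, Braf, Pgrmc1, Scap, Pkmyt1, Bmp2k, Paqr5 and the called marker genes were named after their values were seen. GENCODE M21 (GRCm38) served for exon lengths, exon overlaps and gene order only, since its build differs from that of the authors.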

Additional observations from a re-analysis of the deposited data

How the results depend on the processing

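The log2 fold change of Mmd2 lay between −1.60 and −1.40 over the 12 alternative fits, and Paqr4 was the 1 called member among the other 8 in each of them. Leaving out 1 library at a time gave 621 (without knockout 3) to 1895 (without control 2) called genes over the table, and 6 to 14 called genes in the 6 lists. The count was 962 without knockout 2, 976 without control 1, 1068 without control 3 and 1352 without knockout 1. The background of 12.3% thus depends on which libraries enter, from 4.65% without knockout 3 to 14.2% without control 2. Uncalled values near 0 changed sign without 1 library and stayed uncalled: Mmd was 0.006, 0.009 and 0.001 without knockout 1, knockout 3 and control 3 (lowest −0.034), Adipor1 −0.015 without knockout 2 (highest 0.043), Adipor2 0.011 without control 2 (lowest −0.072), Paqr9 −0.068 and −0.033 without knockout 3 and control 3 (highest 0.09), Cdh13 −0.211 and −0.005 without knockout 2 and control 2 (highest 0.372), and Papolb −0.050 without control 3 (highest 0.182); the cause was not tested. With the replicate number as a block, 1809 genes were called, against 1629 without it. Deviations of same-numbered libraries from their group means had r = −0.037, 0.179 and 0.031 across genes for numbers 1, 2 and 3. Knockout 2 and control 2 correlated best with each other, but the highest r was 0.209, between knockout 1 and control 3. Not every library correlated best with its own number. These few correlations cannot settle whether same-numbered samples were paired, and the labels give only the number. At 66 to 133 counts per library, Paqr3 and Paqr7 limit what can be detected.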

Other observations

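Paqr5, which encodes the gamma form of the membrane progestin receptors, was in the table outside the 9 members, and Paqr6 was not listed. Paqr5 stood at 1.43, 1.04 and 1.54 CPM in the libraries labelled knockout, against 0.902, 0.812 and 0.970 CPM in controls. The groups did not overlap, but with 12 to 23 counts per library the gene was not called (log2 0.57, SE 0.251; edgeR adjusted p 0.166, and 0.139 to 0.486 over 12 alternative fits). In GENCODE M21 gene order among the listed genes, Tle3 lies 3 genes from Paqr5, with Kif23 and Rplp1 between them. Kif23, the gene next to Paqr5 on that side, stood at 51.42 ± 3.61 CPM in the libraries labelled knockout and 53.92 ± 1.40 CPM in controls (SD, n = 3 each; edgeR adjusted p 0.456). Both values are descriptions, chosen after they were seen, and no explanation was tested.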
